A study of Brassica napus with 16 samples.

Results

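Young leaf was compared with root in Brassica napus (oilseed rape), using the 4 young leaf and the 4 root RNA-seq libraries, 8 of the 16 in the series. The libraries were chosen by their tissue labels. They came from the cultivars 2063A and B409, with 2 replicates of each tissue in each cultivar. Roots were 1 week old, sampled 7 d after sowing on wet filter paper, and young leaves came from 2-week-old seedlings in hydroponics. Both were raised in a phytotron with 16 h of light at 22 °C and 8 h of dark at 18 °C. No treatment or transgene is named in the labels. Tissue was therefore tied to plant age and growing medium, and their parts in any difference cannot be told apart. The labels do not say that replicates were separate plants, so p-values measure the spread between these libraries, which may be technical. In whole organs, fewer cells of a type and less RNA per cell cannot be told apart.

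The young leaf is the main photosynthetic organ of a seedling, while the root takes up water and mineral ions and is not green. Brassica napus is an allotetraploid, so most genes occur as related copies on an A and a C subgenome, and the letter in a gene identifier such as BnaC04g30870D gives the subgenome and the chromosome. The values are FPKM, fragment counts scaled by transcript length and by the number of mapped fragments. The files do not pair the identifiers with gene names. Of the 101040 identifiers, 3347 matched a symbol in the NCBI RefSeq gene table for the Da-Ae assembly, and only 2 of these carried a gene name. Pathway lists and tissue markers (photosynthesis, nitrate and iron uptake, root barriers and others) could therefore not be counted, and the tissue labels could not be checked against markers. Genes are described by identifier, level and position.

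The depth of the libraries differed within young leaf. Among low FPKM values, the ratio between libraries fell on ratios of small whole numbers, which gave the relative depth of each library. With the deepest library, 2063A young leaf replicate 2, set to 1, B409 young leaf replicate 2 was at 0.944. The young leaf libraries numbered 1 were at 0.473 (2063A) and 0.565 (B409), close to the root libraries at 0.491 to 0.553. Young leaf replicates were also less alike, with a median SD of 0.203 (2063A) and 0.204 (B409) on the log2(FPKM + 1) scale against 0.088 and 0.094 in root (n = 2 each). Fewer genes reached an FPKM of 1 in young leaf (34670 ± 1033, SD, n = 4) than in root (38823 ± 278, SD, n = 4). More genes reached an FPKM of 100 in young leaf (747.2 ± 12.4) than in root (614.5 ± 9.61, SD, n = 4 each). The libraries of the tissues did not overlap in either count (exact permutation test, two-sided p = 0.0286, adjusted p = 0.0286 over 3 measures, the smallest that 70 relabellings allow). With relabelling only within each cultivar, the exact permutation p was 0.0556 for both counts, the smallest that those 36 relabellings allow, so that test cannot pass the threshold. The deepest leaf library had 35976 genes at an FPKM of 1 or more, and the shallowest root library had 38499. The parts of depth and of library scaling in these counts were not tested.

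**Figure D1:**
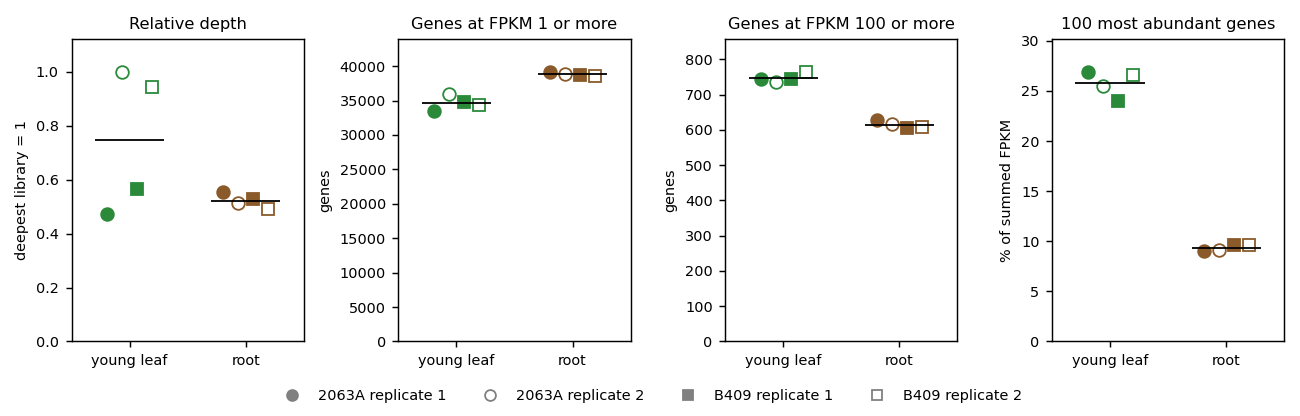
Relative depth, number of genes at an FPKM of 1 or more and of 100 or more, and share of summed FPKM in the 100 most abundant genes (percent), for each of the 8 libraries, with circles for 2063A, squares for B409, filled symbols for replicate 1, open symbols for replicate 2 and lines at the tissue means. Young leaf had fewer genes at 1 or more, more at 100 or more, and a larger share in the 100 most abundant genes in every library.

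Testing covered the 47385 genes that reached an FPKM of 1 in 2 or more of the 8 libraries. Of these, 7273 were called higher in young leaf (15.3%) and 14705 higher in root (31.0%), so 46.4% were called. A call was a limma adjusted p below 0.05 (Benjamini-Hochberg, two-sided) with a change of at least 2-fold on the log2(FPKM + 1) scale, a scale that understates the change of low genes. The 4 young leaf libraries lay above the 4 root libraries without overlap for 6792 of the genes called higher in leaf, and the reverse held for 13758 of those called higher in root. Over all tested genes such separation occurred for 17.6% in the first direction and 44.1% in the second. The median change of all tested genes was -0.55 (leaf minus root, log2). Calls were not centred on this median, so the counts include the shift. The excess of calls toward root depended on how the libraries were scaled. Higher in leaf were 33.1% of calls as deposited and 27.9% with equal summed FPKM. They were 46.0% after quantile normalization (8749 leaf, 10262 root) and 50.8% after median-ratio scaling on the 23080 genes at an FPKM of 1 or more in all 8 libraries (9142 leaf, 8858 root), an alternative added after seeing the data. No gene called in 1 direction was called in the other under any of these scalings.

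Called changes of 16-fold or more were more frequent toward leaf. At least 16-fold changes were called for 1368 genes higher in young leaf and 796 higher in root, and at least 64-fold changes for 475 and 103. The same order was found with equal summed FPKM (1270 and 903 at 16-fold), quantile normalization (1522 and 679) and median-ratio scaling (1706 and 532). With a pseudocount of 0.1 in place of 1, the order at 16-fold turned (3276 and 3725), while at 64-fold leaf remained ahead (1439 and 1150). A pseudocount of 5 lowered the calls to 4202 and 6293.

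**Figure D2:**
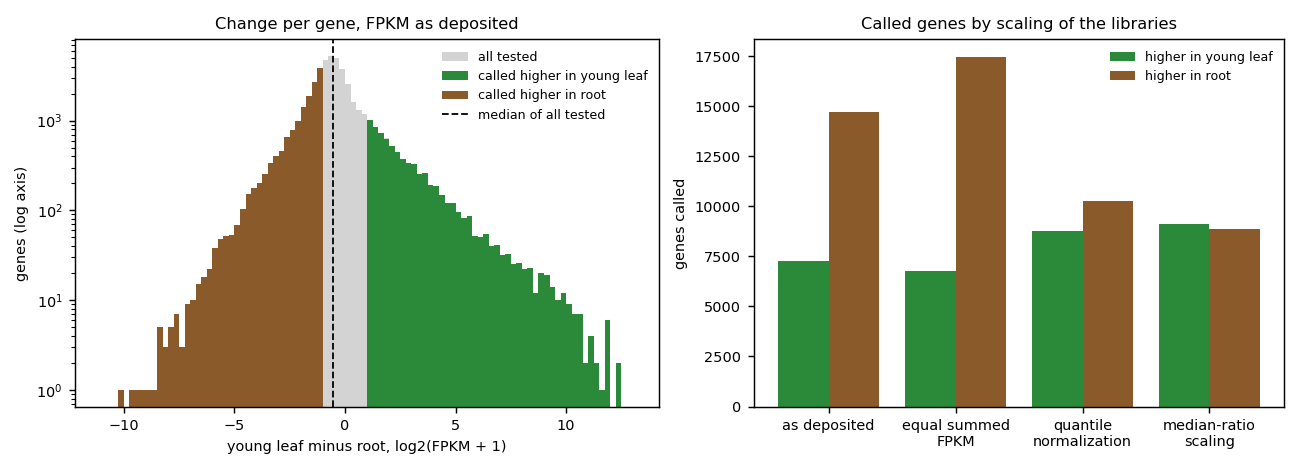
Left, number of genes (log axis) by young leaf minus root change on the log2(FPKM + 1) scale, for all tested genes (grey) and for genes called higher in young leaf (green) or root (brown), with the median of -0.55 as a dashed line. Right, called genes by direction with FPKM as deposited, equal summed FPKM, quantile normalization and median-ratio scaling; the excess toward root is absent under median-ratio scaling.

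On the log2(FPKM + 1) scale, the largest changes toward leaf were those of BnaC04g30870D and BnaA04g20150D. These were also the 2 most abundant leaf genes. BnaC04g30870D had an FPKM of 7756 and 7147 in young leaf of 2063A and of 8590 and 6580 in young leaf of B409. In root it was at 0.606 and 0.872 in 2063A and was listed at 0 in both B409 libraries. Every leaf library lay far above every root library (log2 change 12.47, SE 0.20, limma adjusted p = 4.5e-10). BnaA04g20150D was at 4742 and 5000 in leaf of 2063A and at 6815 and 9322 in leaf of B409. In root it was at 0.703 and 0.542 in 2063A and again listed at 0 in B409 (log2 change 12.26, SE 0.28, limma adjusted p = 2.5e-09). Its change was larger in B409 (interaction of tissue and cultivar -1.41, SE 0.29, limma adjusted p = 0.038), a call lost under several alternatives. The size of this interaction depended on the pseudocount. It was -3.56 with 0.1 (limma adjusted p = 0.002) and -0.88 with 5 (limma adjusted p = 0.12). Because some root values are 0, the leaf minus root changes of these 2 genes depend on the pseudocount, and with 0.1 they were 14.67 and 14.50. Their rank depends on it too, because genes listed at 0 in every root library gain more from a smaller pseudocount. Among the 10 genes with the largest change toward leaf, mean leaf FPKM ran from 2762 to 7518 and no root value exceeded 0.872. Of these 10 genes, 5 were listed at 0 in all 4 root libraries. The labels and files used here do not state how reads matching several copies were assigned, so the level of a single copy is uncertain wherever near-identical copies exist.

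The largest changes toward root on the log2(FPKM + 1) scale reached lower levels. BnaCnng27420D, which has no assigned chromosome, was at 1220 in both root libraries of 2063A and at 1422 and 1383 in those of B409. In young leaf it was listed at 0 in replicate 1 of 2063A and replicate 2 of B409, and at 0.319 and 0.0706 in the other two (log2 change -10.23, SE 0.14, limma adjusted p = 3.3e-10). BnaC01g15480D, the most abundant root gene, was at 2240 and 2167 in root of 2063A and at 2554 and 2478 in root of B409. Its leaf values were 0.857 and 2.16 in 2063A and 3.71 and 1.86 in B409 (log2 change -9.63, SE 0.23, limma adjusted p = 3.0e-09). The tissues did not overlap for either gene, and with a pseudocount of 0.1 the changes were -12.97 and -10.20. The rank of BnaC01g15480D depends on the pseudocount, because genes listed at 0 in every leaf library gain more from a smaller one. Over the 10 genes with the largest change toward root, mean root FPKM ran from 337 to 2360, and 7 were listed at 0 in all 4 leaf libraries.

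**Figure D3:**
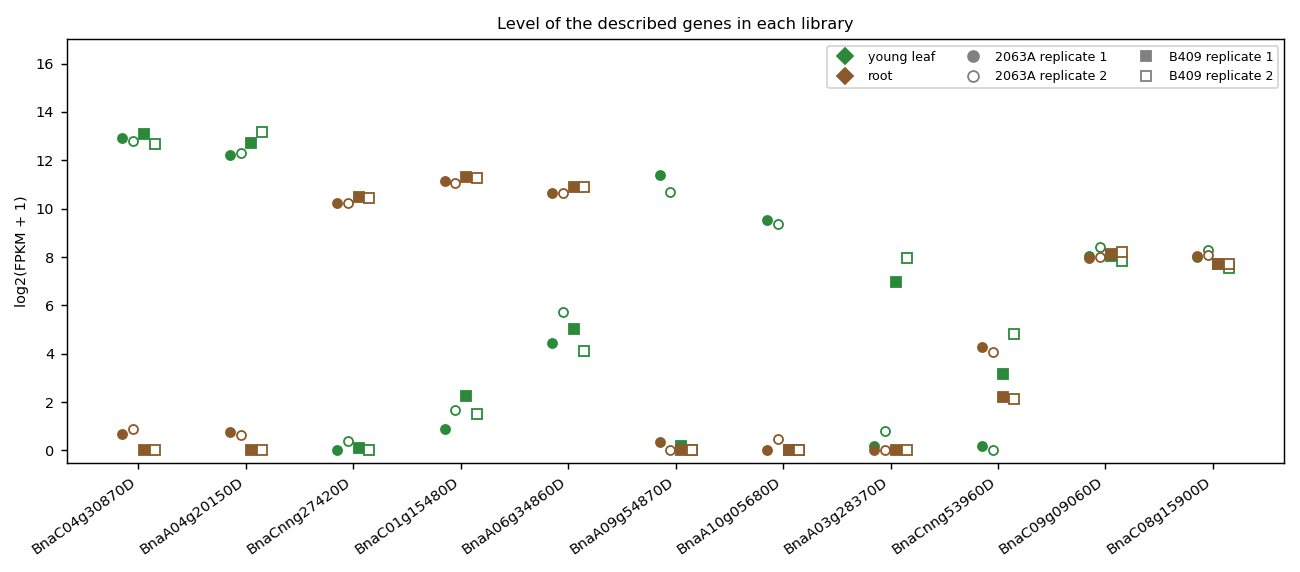
Level of the described genes in each of the 8 libraries, as log2(FPKM + 1), with green for young leaf, brown for root, circles for 2063A, squares for B409, filled symbols for replicate 1 and open symbols for replicate 2. The leaf genes at left and the root genes next to them separate by tissue in both cultivars, BnaA09g54870D to BnaCnng53960D differ between cultivars, and the 2 genes at right overlap between tissues.

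Many genes passed an FPKM of 1 in 1 tissue only. Values of 1 or more in every leaf library and below 1 in every root library were found for 3147 genes, of which 1282 were listed at 0 in every root library. The reverse arrangement was found for 4745 genes, of which 1643 were listed at 0 in every leaf library. The leaf genes of this kind reached higher levels, with a median of 8.28 FPKM and 322 genes at a mean of 100 or more, than the root genes, with a median of 4.02 FPKM and 50 such genes. At the other end, 23080 genes reached an FPKM of 1 in every one of the 8 libraries. Of these, 36.7% were called (2191 higher in leaf, 6288 higher in root), against 46.4% of all tested genes. By its definition this set leaves out the genes that passed an FPKM of 1 in 1 tissue only. All counts in this paragraph use FPKM as deposited, and the excess of calls toward root depended on the scaling.

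The most abundant genes differed between the tissues. The 10 most abundant leaf genes and the 10 most abundant root genes shared 0 members, the 100 most abundant shared 1, and the 1000 most abundant shared 176. The 100 most abundant leaf genes held 25.11% ± 1.44 of summed FPKM in leaf and 0.14% ± 0.03 in root (SD, n = 4 each), and all 100 were called higher in leaf. The 100 most abundant root genes held 9.13% ± 0.35 of summed FPKM in root and 1.62% ± 0.09 in leaf (SD, n = 4 each). Of these, 87 were called higher in root and 1 higher in leaf. The lists were ranked on the same libraries, so these counts describe them and are no independent support. BnaA06g34860D, second in root, illustrated an abundant root gene that leaf also expressed. It was at 1612 and 1625 in root of 2063A and at 1926 and 1917 in root of B409. In leaf it was at 20.9 and 52.7 in 2063A and at 31.6 and 16.1 in B409 (log2 change -5.96, SE 0.33, limma adjusted p = 4.9e-07). Together the genes called higher in leaf held 64.1% ± 2.43 of summed FPKM in leaf and 3.1% ± 0.12 in root (SD, n = 4 each). Those called higher in root held 59.6% ± 0.91 in root and 11% ± 0.95 in leaf (SD, n = 4 each). Both sets were called on the same libraries, so the direction of these shares was fixed by that choice.

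Among genes with a limma adjusted p of 0.05 or more and an absolute log2 change below 0.25, the most abundant was BnaC09g09060D. Its FPKM was 261, 345, 265 and 229 in leaf (2063A replicates 1 and 2, then B409) and 250, 258, 281 and 294 in root. Over both cultivars together the tissues overlapped (log2 change 0.01, SE 0.18, limma adjusted p = 0.96). Both leaf values lay above both root values in 2063A and below them in B409. The changes within cultivars were 0.24 and -0.22 (limma adjusted p = 0.39 and 0.42). The direction of its change over both cultivars depended on the scaling. It was -1.02 after quantile normalization (limma adjusted p = 0.0005) and 0.64 after median-ratio scaling (limma adjusted p = 0.0066). Under the other alternatives its limma adjusted p ran from 0.30 to 0.98. The next was BnaC08g15900D, at 258, 308, 206 and 184 in leaf and 260, 268, 211 and 208 in root (log2 change -0.01, SE 0.15, limma adjusted p = 0.97). It also moved with the scaling, to -0.89 and 0.62.

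Of the 2 identifiers with a RefSeq gene name, TR1 was called and KCP1 was not; the difference between them was not tested. BnaA02g32290D (KCP1) was at 43.3 and 27.8 in leaf and 36.5 and 39.4 in root of 2063A, and at 23.0 and 17.5 in leaf and 10.1 and 11.8 in root of B409. Over both cultivars together its tissues overlapped (log2 change 0.35, SE 0.23, limma adjusted p = 0.20). Within B409 leaf lay above root without overlap (0.82, limma adjusted p = 0.022), a change below the 2-fold limit. Within 2063A the change was -0.12 (limma adjusted p = 0.69). The interaction was not called (-0.94, limma adjusted p = 0.21). The change of KCP1 moved to 0.95 after median-ratio scaling (limma adjusted p = 0.0078), and to 0.14 with equal summed FPKM. It was 0.57 without 2063A young leaf replicate 2, 0.18 without B409 young leaf replicate 1 and 0.21 without B409 root replicate 1, and its limma adjusted p ran from 0.0078 to 0.74 over all alternatives. BnaCnng15100D (TR1) was at 5.19, 4.83, 5.38 and 6.19 in leaf and at 15.1, 17, 13.8 and 17.9 in root, with no overlap (log2 change -1.40, SE 0.13, limma adjusted p = 1.8e-05). After median-ratio scaling its change was -0.83, below the 2-fold limit. Of 18 tested identifiers that RefSeq lists as misc_RNA or lncRNA, 2 were called higher in leaf and 8 higher in root, where 15.3% and 31.0% of all tested genes were; the difference from all genes was not tested.

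The next question was whether the cultivars shared the leaf-root difference. Fitted within each cultivar, 7000 genes were called higher in leaf (14.8%) and 14485 higher in root (30.6%) in 2063A, 45.3% of those tested. In B409 the counts were 7363 (15.5%) and 15111 (31.9%), 47.4% of those tested. In both cultivars, 6009 genes were called higher in leaf and 11349 higher in root, while 30 were called in opposite directions. The change in 2063A and the change in B409, which rest on separate libraries, correlated across the 47385 tested genes at r = 0.93. Genes are not independent replicates, so this is a description. The difference itself was tested as an interaction of tissue and cultivar. It was called for 2494 genes (5.26% of those tested), with leaf minus root larger in 2063A for 1070 (2.26%) and larger in B409 for 1424 (3.01%). Of the 2494, 795 had called changes in the same direction in both cultivars, and 29 in opposite directions. A further 754 had a called change in 2063A and not in B409, 839 in B409 and not in 2063A, and 77 in neither. The cultivars were further apart in young leaf than in root for 909 of the 2494. The shares of all tested genes called in 1 cultivar only or in neither, or further apart in leaf, were not counted. These counts can therefore not be read as a trait of the interaction genes. Of the 2494, 536 were below an FPKM of 1 in all 4 libraries of B409 and 618 in all 4 of 2063A. The share of all tested genes with such values was not counted. The filter for testing also admitted genes that reached an FPKM of 1 in 1 cultivar only. The interaction count depended on the libraries used. It was 1103 and 1112 without 2063A root replicate 1 or 2, 1203 and 1142 without B409 root replicate 1 or 2, and rose to 4175 without both young leaf libraries numbered 1 and to 3738 without both numbered 2. In these fits a group left with 1 library is assumed to vary like the other groups.

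**Figure D4:**
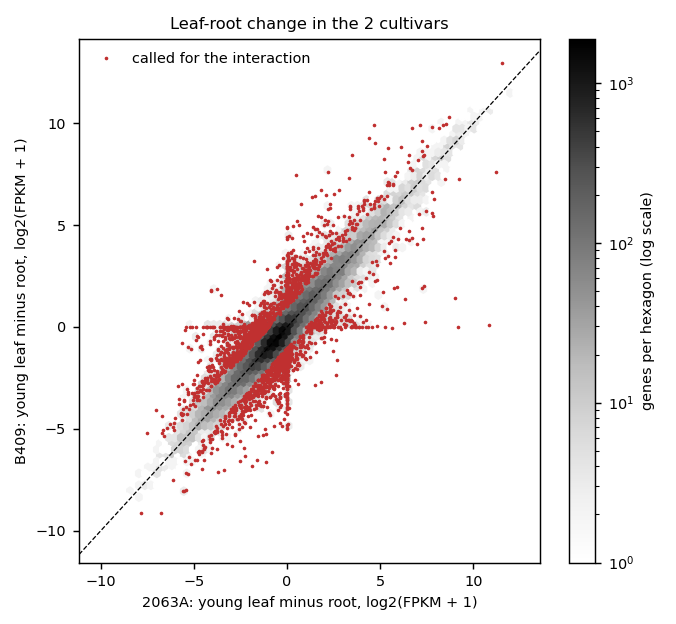
Young leaf minus root change on the log2(FPKM + 1) scale in 2063A (x axis) and in B409 (y axis) for the 47385 tested genes, as hexagons shaded by number of genes, with the 2494 genes called for the interaction as red points and a dashed line of equal change. Most genes lie along the line (r = 0.93), and interaction genes on the horizontal or vertical line at 0 had a change in 1 cultivar and little or none in the other.

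BnaA09g54870D gave the largest interaction toward 2063A. Its FPKM was 2696 and 1644 in young leaf of 2063A and did not exceed 0.268 in the root libraries of 2063A. In B409 it was at 0.131 and 0 in leaf and listed at 0 in root (interaction 10.78, SE 0.36, limma adjusted p = 0.00016). Leaf and root therefore differed in 2063A, whereas in B409 every library was near 0. BnaA10g05680D had the same arrangement, at 734 and 650 in leaf and 0 and 0.374 in root of 2063A, and was listed at 0 in all 4 B409 libraries (interaction 9.20, SE 0.27, limma adjusted p = 0.00016). Toward B409, BnaA03g28370D was at 123 and 246 in leaf of B409 and at 0.142 and 0.739 in leaf of 2063A, and was listed at 0 in all 4 root libraries (interaction -6.95, SE 0.48, limma adjusted p = 0.00069). With values at 0, these interactions also depend on the pseudocount, and with 0.1 they were 12.82, 11.63 and -8.59. BnaCnng53960D turned direction between the cultivars. It was at 0.134 and 0 in leaf and 18.5 and 15.9 in root of 2063A, and at 7.94 and 27.0 in leaf and 3.58 and 3.35 in root of B409. Root was higher in 2063A (log2 change -4.09, limma adjusted p = 0.00024) and leaf higher in B409 (1.83, limma adjusted p = 0.011), and the interaction was -5.92 (SE 0.66, limma adjusted p = 0.0043). BnaCnng37300D carried nearly the same values, with ratios of 1 to 1.03 between the 2 genes in the 6 libraries above an FPKM of 1, so the 2 may share reads and are counted with that uncertainty (interaction of BnaCnng37300D -5.87, limma adjusted p = 0.0045).

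Calls were found at similar shares on every chromosome. Of the 23291 genes tested on the A subgenome, 15.8% were higher in leaf and 30.8% higher in root. Of the 23982 on the C subgenome, 14.9% were higher in leaf and 31.3% higher in root. By chromosome, the share higher in leaf ran from 13.8% on C03 to 17.7% on A04, and the share higher in root from 28.1% on A10 to 34.2% on A02. Calls of neighbouring genes were also counted. Ordered by identifier number, the next tested neighbour of a leaf-higher gene was also higher in leaf in 19.0% of 6540 cases, against 14.7% of 35925 cases for other genes. For root-higher genes the shares were 34.2% of 13179 and 29.6% of 29286. The longest run of adjacent tested genes higher in leaf had 11 members, and the longest higher in root had 9. Runs of 5 or more held 78 leaf-higher genes in 13 runs and 753 root-higher genes in 138 runs. Root-higher calls were also more common (31.0% of tested genes against 15.3%), which by itself gives more runs. The run counts of the 2 directions are therefore not a like comparison. These neighbour shares and run counts are descriptions without a test.

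**Figure D5:**
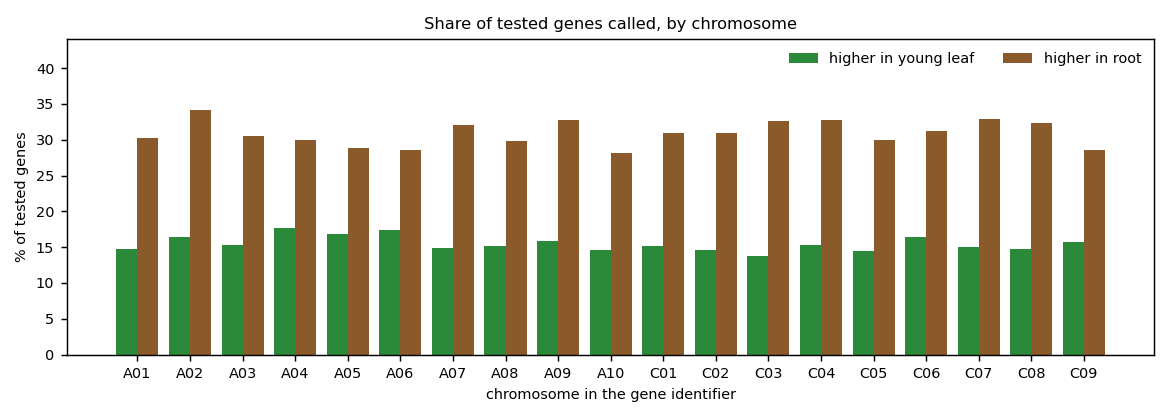
Share of tested genes (percent) called higher in young leaf (green) or in root (brown) for each of the 19 named chromosomes of the A and C subgenomes. Leaf shares lie between 13.8% and 17.7% and root shares between 28.1% and 34.2%.

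In summed FPKM, the A subgenome held 51.26% ± 1.75 in young leaf and 49.16% ± 0.342 in root (SD, n = 4 each), with no overlap (exact permutation test, two-sided p = 0.0286, adjusted p = 0.0286 over 3 measures, and 0.0556 with relabelling within cultivars). The leaf values were 53.68% and 51.36% in 2063A and 50.23% and 49.76% in B409, and the root values 49.47% and 49.45% in 2063A and 48.85% and 48.88% in B409. The difference of 2.09 percentage points fell to 1.29 without 2063A young leaf replicate 1, and to 0.55 when the 100 most abundant genes were left out (exact permutation test, adjusted p = 0.71, against 0.056 to 0.057 under the other alternatives).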

How the data were processed

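RNA-seq of 4 young leaf and 4 root libraries was used. The authors deposited gene FPKM values, 1 file per library. Trimmomatic, TopHat2 and Cufflinks 2.1.1 are listed, with no role or setting, per the submitters' processing notes. The sources used here name no genome build or gene annotation. FPKM is not a count, so no count model was used, and absolute depth is unknown. Relative depth came from log2 ratios of values below 0.3 FPKM between libraries, matched within 0.01 to ratios of whole numbers up to 8.

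Values were joined by identifier, transformed to log2(FPKM + 1) and fitted with limma 3.58.1 in R 4.3.3 (mean-variance trend, 5 residual and 3.66 prior degrees of freedom), with tissue and cultivar as terms. The interaction and within-cultivar changes came from 1 mean per group (4 residual degrees of freedom). Per-library measures were tested by exact permutation. An exact 0 can be a failed estimate, so genes are described as listed at 0. Alternatives covered pseudocount, filter, scaling, array weights, all 16 libraries, a replicate block and leaving out libraries. The script was tested on simulated data.

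Same-numbered leaf and root libraries did not deviate together (r = 0.0 in 2063A, 0.007 in B409), so replicate numbers were not used as pairs of leaf and root. Named genes followed a fixed rule (largest non-overlapping changes, most abundant, largest interactions, most abundant uncalled, RefSeq-named), and as identifiers carry no names the first 2 of each are printed. The members, rules and tests were chosen with earlier results of these data known.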

Additional observations from a re-analysis of the deposited data

Results flagged for a closer look

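The leaf-root difference depended on cultivar for 2494 genes, by limma's test of the interaction of tissue and cultivar. Of the genes described, 6 were among them. The interaction (2063A minus B409, log2) was 10.78 for BnaA09g54870D and 9.2 for BnaA10g05680D. It was -6.95 for BnaA03g28370D, -5.92 for BnaCnng53960D, -5.87 for BnaCnng37300D, which carries nearly the same values, and -1.41 for BnaA04g20150D. The interaction of BnaA04g20150D was not called with a pseudocount of 5 (-0.88, limma adjusted p = 0.12). In a screen of 40 sets of 4 libraries (per-library measures and described genes), 2 had a library far from the others. That is no more than chance gives, about 1 in 20. In both, a single root library was above 0 and the other 3 were listed at 0, so even a low value stood apart. The values were an FPKM of 0.268 for BnaA09g54870D in 2063A root replicate 1 and of 0.374 for BnaA10g05680D in 2063A root replicate 2.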

How the results depend on the processing

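A pseudocount of 5 called 4202 genes higher in leaf and 6293 higher in root, with 10445 within 2063A and 11163 within B409. Median-ratio scaling called 8858 higher in root. The interaction count was 1419 and 1251 with pseudocounts of 0.1 and 5, 1560 with a minimum FPKM of 5, 3882 with all 16 libraries, 3510 with a leaf replicate term, 4175 and 3738 without both young leaf libraries numbered 1 or 2, and 1103 to 3069 when single libraries were left out. With the replicate number as a block it was 1255; the numbers do not pair leaf with root, though same-numbered young leaf libraries of the cultivars deviated together (r = 0.345), and the block called 7197 genes higher in leaf and 14581 higher in root. Without both young leaf libraries numbered 2, the remaining libraries had similar depth, and 7066 and 15138 genes were called. BnaC09g09060D turned to -1.02 after quantile normalization. Leaving out single libraries gave leaf minus root differences of -4588 to -3757 for genes at an FPKM of 1 or more, 127 to 137 for genes at 100 or more and 1.29 to 2.59 for the A subgenome share, and none of these designs can pass the threshold. Relabelling within cultivars, with differences of -4153, 133 and 2.09, gave an exact permutation p of 0.0556, its smallest. Without the 100 most abundant genes the A share difference was 0.55. The causes were not tested. Of 1105 results for single genes under an alternative, 1050 kept their side of the threshold, 50 lost the call, 4 gained it and 1 was called with the opposite sign. The sign changed in 16, all of 3 genes chosen for an uncalled change near 0.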

Other observations

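Young leaf replicates differed in a way that the cultivars shared. Across tested genes, the replicate 1 minus replicate 2 difference in young leaf correlated between 2063A and B409 at r = 0.345, against -0.005 in root; this is a description across genes, and the libraries numbered 1 were also the shallower ones. In both cultivars, 206 genes were at least 2-fold higher and 355 at least 2-fold lower in leaf replicate 1 than in replicate 2, while 73 were that far apart in opposite directions. Of the 561 genes apart in the same direction, 187 were called higher in leaf and 125 higher in root (55.6%, against 46.4% of all tested genes). Over all tested genes, 15.3% were called higher in leaf and 31.0% higher in root. On this scale a gene must reach an FPKM of 1 in leaf of both cultivars to be 2-fold apart in both. The 561 were thus chosen through their leaf level, and these shares are no like comparison. With a term for this shared leaf replicate difference, added after seeing the data, 7301 genes were called higher in leaf and 14716 higher in root, of which 7264 and 14695 were also called without it, and the interaction count rose from 2494 to 3510. The part of depth in the replicate difference was not tested.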
